A study of Mus musculus with 12 samples.

Results

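The transcription factors that commit a lymphoid progenitor to the B lineage and hold it there were examined in mouse pre-B cell lines with and without BCR-ABL1. The 10 genes Pax5, Ebf1, Foxo1, Foxo3, Sox4, Lef1, Myb, Bcl11a, Pou2f2 and Pou2af1 were chosen by name, and each matched 1 of the 51826 genes in the count table. RNA came from 12 lines of C57BL/6 mice, 6 transduced with an empty retroviral vector (EV) and 6 with a BCR-ABL1 vector, the fusion kinase of Philadelphia chromosome-positive acute lymphoblastic leukemia. Marrow of 2 mice was grown for 7 days with interleukin 7 (IL7), the cytokine on which cultured pre-B cells depend, and cells of each mouse gave 3 EV and 3 BCR-ABL1 lines. All lines had IL7 for the next 48 hours. From then on the BCR-ABL1 lines had 1 week without IL7, which selected for transformed cells. Culture of the EV lines lasted about as long, with IL7 throughout, and ended with a sort for GFP, which the vector carries. IL7 withdrawal, any difference in sorting and BCR-ABL1 thus coincide in all 12 lines and cannot be told apart. The question asked of each factor is whether its transcript differs between control and transformed lines, and whether it does so in the lines of both mice. The lines are separate samples, but they come from 2 mice, so that p-values measure the spread between these lines. Lines are named here by mouse and letter, so that EV line 2C is the EV line C of mouse 2.

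In early B cell development EBF1 opens B lineage genes and switches on PAX5, which activates genes of the pre-B cell receptor and represses genes of other lineages. FOXO proteins are held in the cytoplasm when phosphatidylinositol 3-kinase and AKT are active, and in pre-B cells FOXO1 drives the genes of the IL7 receptor and of V(D)J recombination. LEF1 is a nuclear partner of beta-catenin, MYB and SOX4 sustain pro-B cells, BCL11A is a zinc finger repressor needed at the start of the lineage, and OCT2 (Pou2f2) binds the octamer of immunoglobulin promoters together with its coactivator OBF1 (Pou2af1). Transcript levels do not report where these proteins are or how active they are.

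Total counts per line ranged from 34791011 to 66011225 (median 52755639), and the lowest was that of EV line 2A. No factor had fewer than 392 counts in a line, so that counting error was small beside the spread between lines. The 8 B lineage markers, among them Cd79a, Cd79b, Vpreb1, Igll1, Cd24a, Blnk and Cd22, were present in all lines. Their sum was 4100 to 7193 CPM (counts-per-million) over the EV lines and 4069 to 4719 CPM over the BCR-ABL1 lines. The 2 highest sums were those of EV lines 2A (7193 CPM) and 2B (6427 CPM). Sums of myeloid markers stayed at or under 1.10 CPM, and those of mast and basophil and of stromal markers at or under 1.47 CPM. The sum of 8 T and NK cell markers was 11.2 to 42.0 CPM over EV lines and 0.664 to 4.77 CPM over BCR-ABL1 lines. In EV lines it was made up mostly of Trac. Of the 3 such markers tested 2 were called lower (6.49% of all tested genes were), Trac from 9.99 to 41.1 CPM to 0.213 to 1.34 CPM and Cd3d from 0.234 to 0.644 CPM to at most 0.116 CPM. The other, Klrb1c, was at 0.0289 to 1.07 CPM over EV and 0.353 to 3.68 CPM over BCR-ABL1 lines (log2 fold change 1.45, edgeR adjusted p = 0.497). Its log2 fold change was 5.01 in mouse 1 and -0.94 in mouse 2 (interaction, edgeR adjusted p = 0.000300). Cd3g, not tested, was at 0.113 to 0.215 CPM over EV and at most 0.017 CPM over BCR-ABL1 lines, and Cd3e and Thy1 stayed at or under 0.123 CPM in every line. Their part in the results on the factors was not tested. Erythroid markers summed to 1.26 to 6.71 CPM over EV and 5.87 to 12.6 CPM over BCR-ABL1 lines, and 1 of the 2 tested, Hbb-bt, was called higher (log2 fold change 1.72, edgeR adjusted p = 0.0296). Xist was 581 to 1401 CPM in the lines labelled mouse 2 and at most 1.13 CPM in those labelled mouse 1, while the Y-linked Ddx3y showed the opposite order in all 12 lines. Sex and mouse therefore cannot be told apart here. The study's methods describe its wild-type mice as female, which the Ddx3y levels of the lines labelled mouse 1 do not match. EV line 2C stood apart from the other EV lines of mouse 2. Across tested genes its centred log2 CPM correlated with EV lines 2A and 2B at r of 0.23 and 0.06, against 0.79 between those lines, and 0.88 to 0.96 within each other set of 3 lines. Genes are not independent replicates, and this r describes likeness only. Results that rest on EV line 2C are therefore given with and without it.

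CPM values are scaled to equal library size by the trimmed mean method of edgeR (TMM). The conditions were compared with edgeR's glmTreat, a quasi-likelihood test of whether a gene changed by more than 1.5-fold, over all 15038 genes that passed the filter on low counts. A gene is called when its Benjamini-Hochberg adjusted p over these genes is under 0.05. All 10 factors passed the filter.

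The factors fell into 3 groups. Bcl11a rose in BCR-ABL1 lines. Lef1, Pou2f2 and Myb had values about 0.75 to 0.90 lower on the log2 scale, not called by the 1.5-fold test but past a test against no change. The other 6, Pax5, Ebf1, Foxo1, Foxo3, Sox4 and Pou2af1, differed by at most 0.28 on the log2 scale. Of the 10 factors 1 was called higher and 0 lower by edgeR's glmTreat, where 12.5% of all tested genes were called (5.99% higher and 6.49% lower). At an unadjusted p under 0.05 the same test gave 1 higher and 3 lower, where it gave 9.8% of all genes higher and 11.2% lower. DESeq2, the likelihood ratio fit and limma each called 1 higher and 0 lower, where 9.48%, 13.5% and 9.99% of all genes were called. By the test against no change 1 factor was higher and 4 were lower (Ebf1, Lef1, Pou2f2 and Myb), where 48.5% of all genes passed (22.5% higher and 25.9% lower). With the mouse as a block 1 was higher and 0 were lower, where 14.7% of all genes were called (7.49% higher and 7.18% lower). The count of called factors is thus close to what the background gives for 10 genes. The EV and BCR-ABL1 lines did not overlap in 3 of the 10 factors, against 25.6% of all tested genes (12.1% higher and 13.5% lower). Without EV line 2C they did not overlap in 5, with Ebf1 and Myb added, against 40.4% of all tested genes. Over the 10 factors the median log2 fold change was -0.23, beside -0.02 for all tested genes. In bulk RNA, fewer cells with a transcript and less transcript per cell cannot be told apart.

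**Figure D1:**
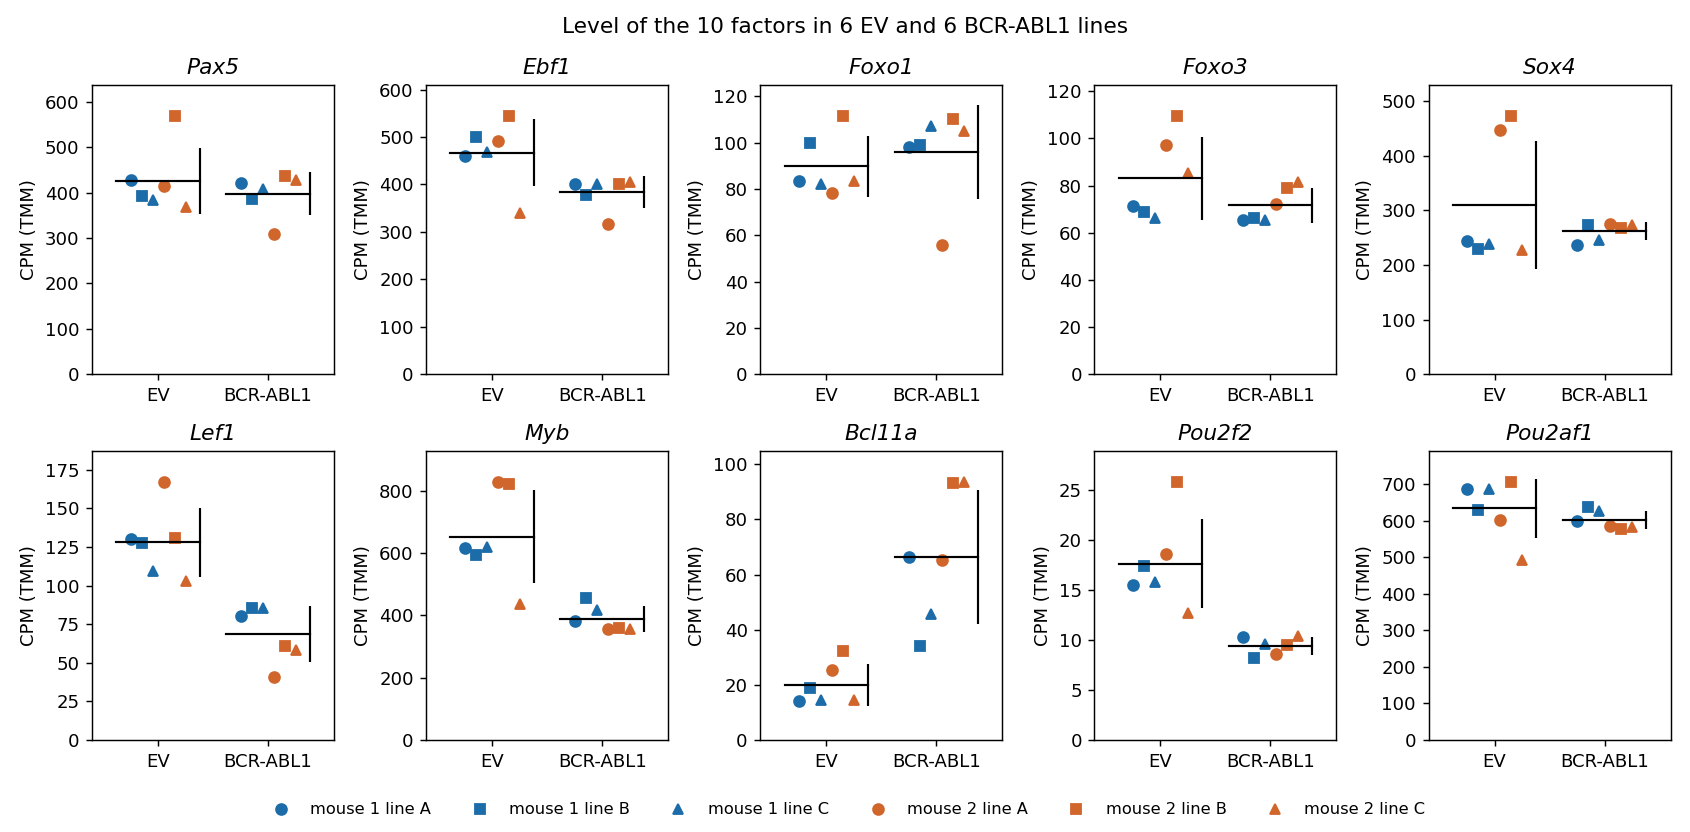
CPM (TMM scaled, axis from 0) of each factor in the 6 EV and 6 BCR-ABL1 lines, with colour for the mouse and shape for the line letter. Horizontal bars are group means and vertical bars SDs (n = 6). Bcl11a is higher, and Lef1 and Pou2f2 are lower, in every BCR-ABL1 line than in any EV line, whereas in Myb 1 BCR-ABL1 line exceeds EV line 2C.

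Bcl11a (ENSMUSG00000000861, GRCm38 chr11:24078056-24174123, plus strand) encodes a zinc finger transcription factor without which B cell development does not start. In EV lines 1A, 1B and 1C it measured 14.1, 18.7 and 14.5 CPM, and in EV lines 2A, 2B and 2C 25.4, 32.4 and 14.4 CPM. In BCR-ABL1 lines 1A, 1B and 1C it measured 66.3, 34.2 and 45.6 CPM, and in lines 2A, 2B and 2C 65.4, 93.2 and 93.6 CPM. All BCR-ABL1 lines lay above all EV lines, although BCR-ABL1 line 1B (34.2 CPM) was close to EV line 2B (32.4 CPM). The rise was 3.34-fold, a log2 fold change of 1.74 (SE 0.31, edgeR adjusted p = 0.00503), and the split of the 12 lines was the most extreme possible (exact two-sided permutation test, p = 0.00216, the smallest these lines allow). The 95% interval from limma ran from 2.15-fold to 5.06-fold. The rise was 1.63 on the log2 scale in mouse 1 (edgeR adjusted p = 0.000504) and 1.82 in mouse 2 (edgeR adjusted p = 0.0333). Within mouse 1 alone 1 factor was called higher and 1 lower, where 28.5% of genes were called (16.3% higher and 12.2% lower). Within mouse 2 alone 1 was called higher and 0 lower, where 6.64% were called (3.99% higher and 2.65% lower). It was called without any 1 of the 12 lines, at log2 fold changes of 1.62 to 1.92. Its coefficient of variation was 36.5% in BCR-ABL1 lines, the highest of the 10 factors, and 37.7% in EV lines, where Sox4 alone was higher (37.8%).

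The RefSeq promoter of Bcl11a is shown since this factor alone was called. Windows of 250 bases before the RefSeq start were searched on both strands in all 32851 promoters of that table (GRCm38.p6) for TCCC and GGGA with any 2 bases between them (EBF1), GTAAACA (FOXO), ATGCAAAT (the octamer), CTTTGAT (LEF1 and TCF), AACAAAG (SOX), TAACNG (MYB) and TTCNNNGAA (STAT5). All 10 factors matched, with 14 promoters. The Bcl11a window is printed without the 25 bases that an annotated exon covers (chr11:24080445-24080669, plus strand), with the STAT5 letters in capitals. This RefSeq start lies inside the GENCODE extent of the gene.
Bcl11a: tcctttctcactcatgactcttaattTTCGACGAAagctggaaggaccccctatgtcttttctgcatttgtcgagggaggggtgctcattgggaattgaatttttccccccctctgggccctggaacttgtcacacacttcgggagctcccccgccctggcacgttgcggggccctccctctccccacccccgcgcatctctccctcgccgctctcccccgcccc
The match TTCGACGAA lies 224 bases before the start, and 7.02% of all promoters hold TTCNNNGAA. Of the 14 promoters 1 held this motif. A match is a description of letters and not of binding.

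Lef1 (ENSMUSG00000027985, GRCm38 chr3:131110471-131224356, plus strand) encodes an HMG box factor that is high in pro-B and pre-B cells. It measured 130, 128 and 109 CPM in EV lines 1A, 1B and 1C and 167, 131 and 103 CPM in EV lines 2A, 2B and 2C. The BCR-ABL1 lines 1A, 1B and 1C had 80.3, 85.7 and 85.7 CPM, and lines 2A, 2B and 2C 40.8, 60.6 and 58.4 CPM. No BCR-ABL1 line reached an EV line, and the BCR-ABL1 lines of mouse 2 were all below those of mouse 1. The log2 fold change was -0.90 (SE 0.20), a level 1.86-fold lower, with an edgeR adjusted p of 0.0977 against 1.5-fold and of 0.00187 against no change (exact two-sided permutation test, p = 0.00216). By limma the level in BCR-ABL1 lines was 0.399 to 0.692 times that of EV lines (95% interval), so that a change smaller than 1.5-fold lies within it. The log2 fold change was -0.53 in mouse 1 and -1.31 in mouse 2. The difference between these, -0.78, had an edgeR adjusted p of 0.0579 for the interaction. It was called by DESeq2, by the likelihood ratio fit and with no gene filter. When EV line 2C was left out it was -0.92 (edgeR adjusted p = 0.00377).

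The first RefSeq promoter of Lef1 is shown since the EV and BCR-ABL1 values of this gene did not overlap (chr3:131110047-131110296, plus strand, MYB letters in capitals).
Lef1: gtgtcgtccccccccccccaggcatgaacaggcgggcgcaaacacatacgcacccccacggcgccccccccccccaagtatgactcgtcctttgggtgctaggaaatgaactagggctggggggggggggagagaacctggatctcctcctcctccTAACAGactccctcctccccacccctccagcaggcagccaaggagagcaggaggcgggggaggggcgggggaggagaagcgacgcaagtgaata
TAACAG lies 94 bases before that start, and TAACNG was in 19.8% of all promoters and in 3 of the 14 of the factors. These were 2 overlapping windows of Lef1 and that of Foxo1. Gm43352, a gene on the opposite strand, shares exon bases with Lef1 and measured 5.04 to 6.07 CPM over EV and 2.72 to 4.04 CPM over BCR-ABL1 lines (log2 fold change -0.75, edgeR adjusted p = 0.179). Libraries were stranded, but how strand was counted is not given in the sources used here, so reads of Lef1 and Gm43352 over their 1208 shared exon bases cannot be told apart.

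Pou2f2 (ENSMUSG00000008496, GRCm38 chr7:25087344-25179726, minus strand) encodes OCT2, which is dispensable for early B cells and acts in mature ones. EV lines 1A, 1B and 1C had 15.5, 17.5 and 15.8 CPM, and EV lines 2A, 2B and 2C 18.6, 25.9 and 12.7 CPM. BCR-ABL1 lines had 8.19 to 10.4 CPM, with a median of 9.57 CPM, and the 3 lines of each mouse lay in the same range. The groups did not overlap. On the log2 scale the difference was -0.90 (SE 0.15), a level 1.87-fold lower, with an edgeR adjusted p of 0.0583 against 1.5-fold and of 0.000653 against no change (exact two-sided permutation test, p = 0.00216). It was called lower in the lines of mouse 1 alone (log2 fold change -0.79, edgeR adjusted p = 0.0363) and not in those of mouse 2 alone (-0.99, edgeR adjusted p = 0.221), and the difference between the mice had an edgeR adjusted p of 0.727. Leaving out EV line 2C, it was called lower (log2 fold change -0.98, edgeR adjusted p = 0.0134). The RefSeq promoter of Pou2f2 is printed up to its first annotated exon base, for comparison with those of Lef1 and Myb (chr7:25132513-25132710, minus strand).
Pou2f2: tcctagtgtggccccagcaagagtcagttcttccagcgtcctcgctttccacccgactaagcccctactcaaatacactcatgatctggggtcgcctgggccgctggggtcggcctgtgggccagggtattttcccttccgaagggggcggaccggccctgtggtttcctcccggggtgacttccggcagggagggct
None of the 7 motifs was in the 250-base window from which it was taken.

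Myb (ENSMUSG00000019982, GRCm38 chr10:21124935-21160984, minus strand) encodes the proto-oncogene c-MYB, required for pro-B cell survival. EV lines 1A, 1B and 1C had 616, 595 and 619 CPM, and EV lines 2A, 2B and 2C 829, 820 and 437 CPM. BCR-ABL1 lines 1A, 1B and 1C had 383, 457 and 416 CPM, and the 3 lines of mouse 2 355 to 360 CPM. The groups overlapped only through EV line 2C, which lay below BCR-ABL1 line 1B. The conditions differed by -0.75 on the log2 scale (SE 0.15), with an edgeR adjusted p of 0.218 against 1.5-fold and of 0.00135 against no change (exact two-sided permutation test, p = 0.00433). By limma the level in BCR-ABL1 lines was 0.488 to 0.750 times that of EV lines (95% interval). Without EV line 2C, Myb was called lower (log2 fold change -0.84, edgeR adjusted p = 0.0328). Its change then differed between the mice by -0.64 (edgeR adjusted p = 0.000732), against -0.41 with all lines (edgeR adjusted p = 0.366). Its promoter, shown for its base composition, was 81.2% G and C with 40 CpG, where the medians over all promoters were 52.4% and 6 (chr10:21160985-21161234, minus strand).
Myb: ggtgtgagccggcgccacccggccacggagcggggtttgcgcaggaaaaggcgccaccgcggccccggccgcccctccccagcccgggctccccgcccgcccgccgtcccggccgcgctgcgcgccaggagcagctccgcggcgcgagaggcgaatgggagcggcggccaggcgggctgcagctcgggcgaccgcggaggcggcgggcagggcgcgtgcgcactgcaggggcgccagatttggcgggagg
It held none of the 7 motifs.

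Pax5 and Ebf1, the pair that defines B lineage identity, differed by less than 1.5-fold. Pax5 (ENSMUSG00000014030, GRCm38 chr4:44524757-44710487, minus strand) ranged from 369 to 569 CPM in EV lines (median 404) and from 310 to 436 CPM in BCR-ABL1 lines (median 414). The groups overlapped between 369 and 436 CPM, with EV line 2B the highest (569 CPM) and BCR-ABL1 line 2A the lowest (310 CPM). The conditions differed by -0.10 on the log2 scale (SE 0.12, edgeR adjusted p = 1), and the 95% interval of the level in BCR-ABL1 lines was 0.791 to 1.11 times that of EV lines, so that a change of 1.5-fold in either direction lies outside it. It was 0.02 in mouse 1 and -0.19 in mouse 2 (interaction, edgeR adjusted p = 0.631). A gene on the opposite strand, 5730488B01Rik, shares 636 exon bases with Pax5 and measured 101 to 197 CPM over EV and 63.0 to 130 CPM over BCR-ABL1 lines. Reads over the shared bases cannot be told apart.

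Ebf1 (ENSMUSG00000057098, GRCm38 chr11:44617317-45008091, plus strand) ranged from 339 to 544 CPM in EV lines (median 480) and from 317 to 405 CPM in BCR-ABL1 lines (median 400). The only EV line within the BCR-ABL1 range was EV line 2C (339 CPM). On the log2 scale the difference was -0.28 (SE 0.11), past the test against no change (edgeR adjusted p = 0.0426) and not past 1.5-fold (edgeR adjusted p = 1). The 95% interval was 0.703 to 0.972 times the EV level. The change was of like size in the mice, -0.27 in mouse 1 and -0.28 in mouse 2 (interaction, edgeR adjusted p = 0.981).

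Foxo1 and Foxo3 encode forkhead factors that act below phosphatidylinositol 3-kinase. Foxo1 (ENSMUSG00000044167, GRCm38 chr3:52268336-52353221, plus strand) ranged from 78.2 to 112 CPM in EV lines (median 83.4) and from 55.6 to 110 CPM in BCR-ABL1 lines (median 102). Apart from BCR-ABL1 line 2A at 55.6 CPM, the BCR-ABL1 lines lay between 98.1 and 110 CPM, within the EV range. The conditions differed by 0.10 on the log2 scale (SE 0.17, edgeR adjusted p = 1), with a 95% interval of 0.827 to 1.34 times the EV level. It was 0.21 without BCR-ABL1 line 2A. The Foxo1 promoter is shown since it alone among the 14 held the palindromic EBF1 letters. It is printed without its last base, which an exon covers (chr3:52268087-52268335, plus strand, EBF1 and MYB letters in capitals).
Foxo1: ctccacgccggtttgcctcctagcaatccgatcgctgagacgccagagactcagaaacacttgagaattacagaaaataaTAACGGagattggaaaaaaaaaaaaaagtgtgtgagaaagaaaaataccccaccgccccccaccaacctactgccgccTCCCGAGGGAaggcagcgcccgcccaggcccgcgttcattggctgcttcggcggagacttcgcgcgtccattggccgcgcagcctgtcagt
TCCCGAGGGA lies 92 and TAACGG 170 bases before the start, and the EBF1 letters were in 0.779% of all promoters. FOXO, octamer, LEF1 and TCF, and SOX letters were in none of the 14 promoters of the factors, and in 3.17%, 1.6%, 3.21% and 5.03% of all promoters.

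Foxo3 (ENSMUSG00000048756, GRCm38 chr10:42181841-42276755, minus strand) encodes another forkhead factor of this class, and its values were ordered by mouse. In mouse 1 it measured 66.2 to 71.2 CPM in the EV and 65.2 to 66.3 CPM in the BCR-ABL1 lines. In mouse 2 it measured 85.3 to 110 CPM in the EV and 72.0 to 81.5 CPM in the BCR-ABL1 lines. Every line of mouse 2 was above every line of mouse 1. The log2 fold change between the conditions was -0.22 (SE 0.13, edgeR adjusted p = 1), with an exact two-sided permutation p of 0.177 over all lines and of 0.01 with exchange of lines restricted to the same mouse. Neither permutation p is adjusted for the number of genes. With the mouse as a block the log2 fold change was -0.20 and was not called by edgeR's glmTreat. It was -0.32 in the lines of mouse 2 alone (edgeR adjusted p = 1), where the conditions did not overlap. The difference between the mice, 0.49 in EV and 0.24 in BCR-ABL1 lines on the log2 scale, was not past 1.5-fold (edgeR adjusted p = 1 in both), and was past the test against no change in both. Once EV line 2C was left out, the BCR-ABL1 effect on Foxo3 differed between the mice by -0.33 (edgeR adjusted p = 0.0280), against -0.26 with all lines (edgeR adjusted p = 0.231).

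Sox4 (ENSMUSG00000076431, GRCm38 chr13:28948919-28953713, minus strand), an HMG box factor needed for pro-B cells, was set apart by 2 EV lines. EV lines 2A and 2B had 448 and 473 CPM, EV lines 1A, 1B, 1C and 2C 244, 229, 238 and 228 CPM. The 6 BCR-ABL1 lines had 237 to 275 CPM (median 271). EV lines 1A and 1C thus lay within the range of the BCR-ABL1 lines, EV lines 1B and 2C below it, and EV lines 2A and 2B far above all others. Over all lines the log2 fold change was -0.24 (SE 0.21, edgeR adjusted p = 1), with a 95% interval of 0.668 to 1.19 times the EV level. It was 0.10 in mouse 1 and -0.48 in mouse 2 (interaction, edgeR adjusted p = 0.225), and 0.15 without EV lines 2A and 2B. Without EV line 2C, Sox4 was 0.95 higher on the log2 scale in the EV lines of mouse 2 than in those of mouse 1 (edgeR adjusted p = 0.00603, where 15.5% of genes were called), and the BCR-ABL1 effect differed between the mice by -0.83 (edgeR adjusted p = 8.22e-05). EV lines 2A and 2B also had the highest B lineage marker sums. They had the most genes above 0 counts too (36123 and 28517, against at most 25143 in any other line). The part of these differences in the Sox4 values was not tested. Sox4 shares 2616 exon bases with the opposite-strand gene Gm26735, which stayed at or under 2.12 CPM.

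Pou2af1 (ENSMUSG00000032053, GRCm38 chr9:51213708-51240080, plus strand) was the steadiest of the factors in BCR-ABL1 lines. It ranged from 492 to 706 CPM in EV lines (median 658) and from 577 to 636 CPM in BCR-ABL1 lines (median 592). The BCR-ABL1 lines all lay within the EV range, whose lowest value was EV line 2C. The conditions differed by -0.08 on the log2 scale (SE 0.08, edgeR adjusted p = 1), and the 95% interval was 0.840 to 1.09 times the EV level. The coefficient of variation was 4.13% in BCR-ABL1 and 12.6% in EV lines. The transcript of its partner OCT2 was 1.87-fold lower in the same lines.

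**Figure D2:**
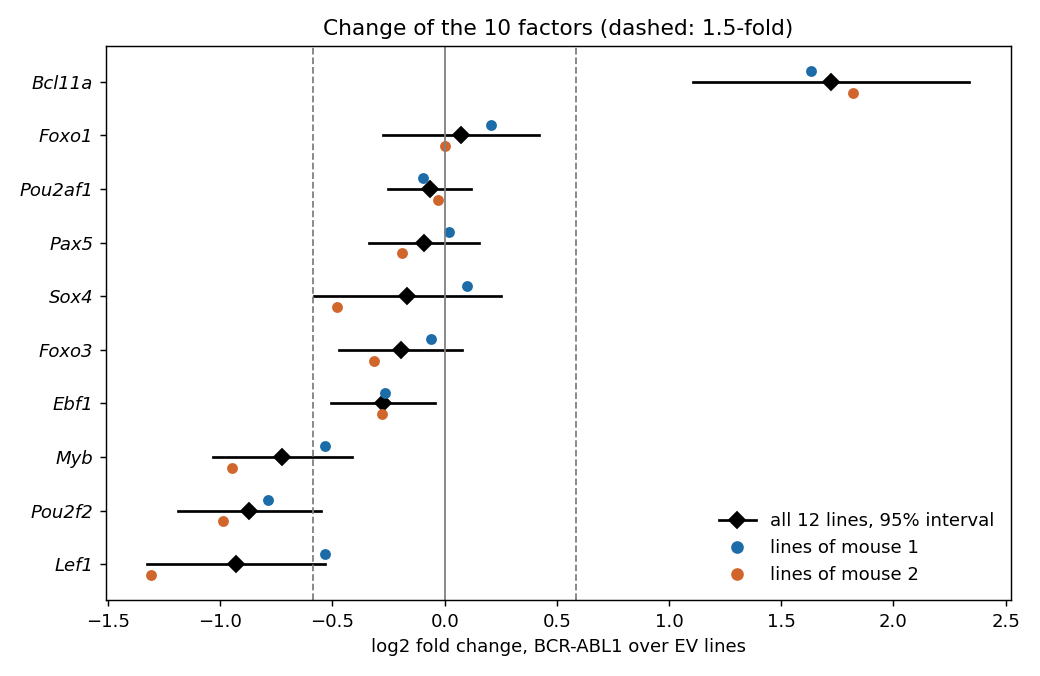
Log2 fold change of BCR-ABL1 over EV lines for the 10 factors. Black diamonds and lines are limma estimates with 95% intervals over all 12 lines, coloured points are edgeR estimates within the lines of 1 mouse, and dashed lines mark 1.5-fold. Bcl11a alone lies wholly beyond 1.5-fold (lower bound 2.15-fold), and Lef1 shows the widest gap between the mice (-0.53 and -1.31).

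Between the mice the BCR-ABL1 effect differed in 0 of the 10 factors by edgeR's interaction test, where 16.3% of all genes were called (5.70% higher and 10.6% lower in mouse 2). At an unadjusted p under 0.05, where 28.7% of all genes passed, it differed in 1 (Lef1), which DESeq2 and the likelihood ratio fit also called. Without EV line 2C it differed in 4 (Foxo3, Lef1, Sox4 and Myb), where 34.8% of all genes were called, and in each of these 4 the log2 fold change was lower in mouse 2. Among EV lines alone 0 factors differed between the mice by edgeR's glmTreat (6.12% of genes called, 4.74% higher and 1.38% lower in mouse 2). At an unadjusted p under 0.05 it gave 0 factors (13.2% of all genes), and DESeq2 called 0 (6.64%). Among BCR-ABL1 lines alone 0 differed (7.25% of genes called, 3.85% higher and 3.40% lower in mouse 2). There an unadjusted p under 0.05 gave 0 factors (11% of all genes), and DESeq2 called 0 (5.71%). Against no change, where 22.1% of all genes passed, Foxo3, Lef1, Bcl11a and Myb differed between the BCR-ABL1 lines of the mice, by 0.24, -0.66, 0.78 and -0.23 on the log2 scale (mouse 2 minus mouse 1). With 3 lines from 1 mouse on each side, these tests compare lines and not mice.

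The factors were spread unevenly among EV lines. EV line 2C was the lowest EV line in 7 of the 10 factors, where it was the lowest in 30.2% of all tested genes. It was the highest EV line in 0 factors, against 24.6% of all tested genes. EV line 2B was the highest EV line in 8 of the 10, where it was the highest in 23.6% of all tested genes. The exceptions at the top were Lef1 and Myb, highest in EV line 2A. Among BCR-ABL1 lines, line 2A was the lowest in 4 (Pax5, Ebf1, Foxo1 and Lef1), against 26.1% of all tested genes. The factors share their libraries, so that these counts describe lines and are not independent.

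**Figure D3:**
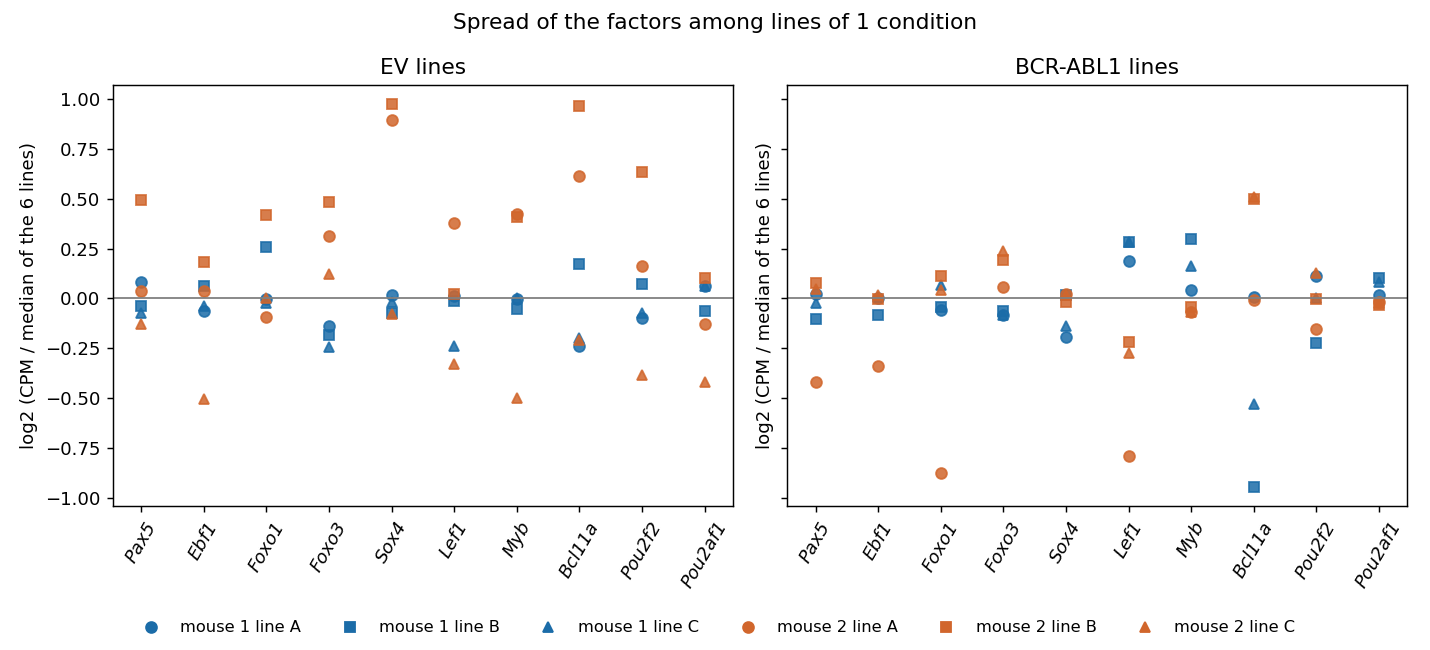
Each line's CPM over the median of the 6 lines of its condition (log2), for EV (left) and BCR-ABL1 lines (right), coloured by mouse and shaped by line letter. EV lines 2A and 2B lie far above the rest in Sox4 (448 and 473 CPM), EV line 2C is lowest in 7 of 10 factors, and BCR-ABL1 line 2A is low in Foxo1 (55.6 CPM) and Lef1 (40.8 CPM).

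Levels of different genes were compared as CPM divided by the annotated exon length in kilobases (RPKM). In EV lines the mean levels were 249 RPKM ± 31.4 (SD, n = 6) for Pou2af1, 73.1 ± 16.7 for Myb, 64.6 ± 24.4 for Sox4, 48.1 ± 8.25 for Pax5 and 47.9 ± 7.14 for Ebf1. They were 14.6 RPKM ± 2.56 for Lef1, 11 ± 2.32 for Foxo3, 10.4 ± 1.5 for Foxo1, 2.14 ± 0.544 for Pou2f2 and 1.51 ± 0.570 for Bcl11a. Of neighbours in this order, the ranges did not overlap between Pou2af1 and Myb, Ebf1 and Lef1, and Foxo1 and Pou2f2, so that the factors formed 4 steps. Pax5 exceeded Ebf1 in 3 of 6 EV lines, and Foxo3 exceeded Foxo1 in 3 of 6. In BCR-ABL1 lines the order was Pou2af1 at 236 RPKM ± 9.74, Sox4 at 54.7 ± 3.44, Pax5 at 45 ± 5.29, Myb at 43.4 ± 4.61, Ebf1 at 39.3 ± 3.51, Foxo1 at 11.1 ± 2.34, Foxo3 at 9.45 ± 0.957, Lef1 at 7.81 ± 2.08, Bcl11a at 5.04 ± 1.84 and Pou2f2 at 1.15 ± 0.11 RPKM (SD, n = 6). Bcl11a and Pou2f2 had exchanged places. Pou2f2 was the higher of the pair in 6 of 6 EV lines, and Bcl11a in 6 of 6 BCR-ABL1 lines. Among the 14998 tested genes with an annotated length, Bcl11a stood at the percentile 31.2 in EV and 52.7 in BCR-ABL1 lines, and Pou2af1 stood at 98.7 and 98.5. RPKM uses all annotated exon bases of a gene, so that a gene whose long isoforms are not transcribed is placed too low.

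**Figure D4:**
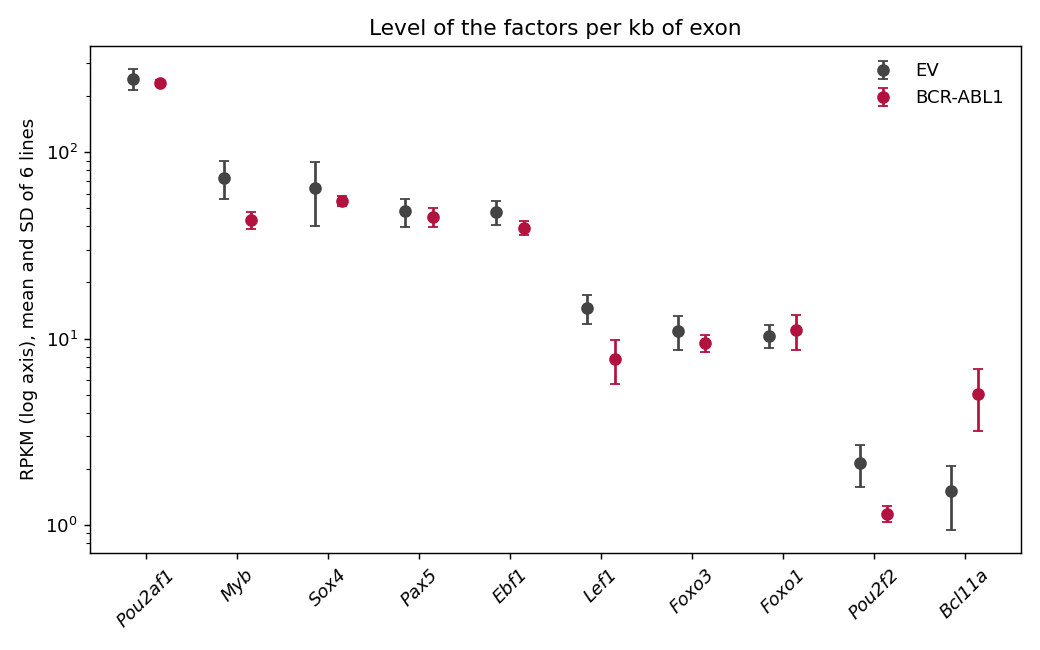
Mean RPKM (log axis) with SD over 6 lines for each factor in EV (grey) and BCR-ABL1 lines (red), ordered by the EV mean. The factors span from 249 RPKM (Pou2af1) to 1.51 RPKM (Bcl11a) in EV lines, and Bcl11a passes Pou2f2 in BCR-ABL1 lines (5.04 against 1.15 RPKM).

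Of 17 paralogs that share a DNA binding domain with a factor, 7 passed the filter on low counts and 0 were called by edgeR's glmTreat, where 12.5% of all tested genes were called. At an unadjusted p under 0.05 it gave 1 higher and 1 lower, where 21% of all genes passed. DESeq2 called 0 of these paralogs, where it called 9.48% of all tested genes. Pax2, Pax8, Ebf2, Ebf3, Ebf4, Foxo6, Tcf7l1, Pou2f3, Sox11 and Sox12 did not pass and stayed at or under 0.644 CPM in every line. Pax5, Ebf1 and Sox4 thus made up nearly all of the RPKM of their family, and the lowest share in any line was 99.6% (Ebf1, in an EV line). Lef1 made up 95.6% to 100.0% of the RPKM of Lef1, Tcf7, Tcf7l1 and Tcf7l2 in EV and 93.7% to 95.5% in BCR-ABL1 lines. Tcf7 (at most 1.65 CPM) and Tcf7l2 (at most 1.54 CPM) were low throughout.

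In other families the factor was one of several. Foxo4 measured 31.4 to 50.9 CPM over EV and 18.8 to 25.0 CPM over BCR-ABL1 lines, without overlap (log2 fold change -0.78, edgeR adjusted p = 0.149, and 0.000687 against no change). Foxo1 made up 25.8% to 38.4% of the RPKM of the family in EV and 28.3% to 46.7% in BCR-ABL1 lines, and Foxo3 30.4% to 37.4% and 32.5% to 41.9%. Pou2f1, which encodes the widely expressed OCT1, was at 113 to 191 CPM over EV and 99.1 to 130 CPM over BCR-ABL1 lines (log2 fold change -0.39, edgeR adjusted p = 1). Pou2f2 made up 15.4% to 23.9% of the RPKM of Pou2f1, Pou2f2 and Pou2f3 in EV and 11.4% to 14.9% in BCR-ABL1 lines, so that the ranges did not overlap. Mybl1 was at 25.7 to 42.0 CPM over EV and 42.9 to 57.1 CPM over BCR-ABL1 lines (log2 fold change 0.51, edgeR adjusted p = 1, and 0.00901 against no change), and Mybl2, a cell cycle gene, at 71.5 to 148 and 103 to 112 CPM (0.04, edgeR adjusted p = 1). The Myb share of the RPKM of these 3 was 56.5% to 82.0% in EV and 54.7% to 62.7% in BCR-ABL1 lines.

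Bcl11b, the paralog of Bcl11a known for T cell commitment, separated lines by mouse. In mouse 1 it measured 39.1 to 44.8 CPM in the EV and 54.6 to 79.1 CPM in the BCR-ABL1 lines. The BCR-ABL1 lines of mouse 2 had 10.2 to 21.4 CPM. In EV lines 2A, 2B and 2C it measured 1.56, 2.3 and 35.2 CPM. EV line 2C was thus close to the EV lines of mouse 1, and the log2 fold change over all lines was 0.67 (SE 1.05, edgeR adjusted p = 1). The Bcl11a share of the RPKM of this pair ran from 16.2% to 90.9% in EV and from 21.3% to 79.8% in BCR-ABL1 lines.

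Genes that these factors are known to control did not move as 1 block. Of 20 genes activated by PAX5 or EBF1, 19 were tested, 2 were called higher and 4 lower, where 5.99% of all tested genes were called higher and 6.49% lower, and their median log2 fold change was -0.004, beside -0.02 for all tested genes. Cd79a, the signalling chain of the B cell receptor, was at 323 to 611 CPM over EV and 294 to 503 CPM over BCR-ABL1 lines (log2 fold change -0.004). Blnk, the adaptor of pre-B cell receptor signalling, was at 73.0 to 454 and 209 to 300 CPM (0.35), and both had an edgeR adjusted p of 1. Without EV lines 2A and 2B, Blnk was called higher and Cd22, which is described next, was no longer called. Igll1, which encodes the surrogate light chain lambda 5, was at 181 to 219 CPM in the EV and 433 to 482 CPM in the BCR-ABL1 lines, both of mouse 1. In mouse 2 it was at 362 to 813 and 349 to 387 CPM. Its change differed between the mice (edgeR adjusted p = 0.00544).

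The 4 genes of this list that fell were Cd72, Cd22, Fcrla and Ralgps2. Cd72, an inhibitory coreceptor, fell from 244 to 592 CPM in EV to 73.1 to 92.5 CPM in BCR-ABL1 lines (log2 fold change -2.52, SE 0.20, edgeR adjusted p = 7.65e-06). Cd22, another inhibitory coreceptor, fell by 1.36 on the log2 scale (SE 0.34, edgeR adjusted p = 0.0345), from 82.4 to 195 CPM to 21.8 to 81.4 CPM. Fcrla fell by 3.05 (SE 0.65, edgeR adjusted p = 0.00424), to 24.6 to 28.4 CPM from a range of 29.8 to 392 CPM, with the EV lines of mouse 1 at 336 CPM or more and those of mouse 2 at 136 CPM or less. Ralgps2 fell by 1.77 (SE 0.44, edgeR adjusted p = 0.0217). Bst1, a surface ADP-ribosyl cyclase, rose by 6.02 (SE 0.36, edgeR adjusted p = 1.45e-06), from 1.1 to 7.59 CPM to 216 to 265 CPM. Bank1, a B cell scaffold protein, rose by 2.51 (SE 0.27, edgeR adjusted p = 8.43e-05), from 3.47 to 9.35 CPM to 34.0 to 62.5 CPM. Rises and falls both occurred in the list while Pax5 and Ebf1 themselves were not called.

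Of 13 genes repressed by PAX5, 8 were tested, 3 were called higher and 1 lower (5.99% and 6.49% of all tested genes), with a median log2 fold change of 1.09 beside -0.02 for all tested genes. Flt3, a receptor of early progenitors, rose from 0.159 to 0.705 CPM to 4.61 to 7.00 CPM (log2 fold change 3.61, SE 0.32, edgeR adjusted p = 2.86e-05). Jchain rose from 0.246 to 2.52 CPM to 8.42 to 10.1 CPM (3.21, SE 0.57, edgeR adjusted p = 0.00405). Xbp1, a plasma cell factor, rose from 45.9 to 64.7 CPM to 97.1 to 125 CPM (1.00, SE 0.11, edgeR adjusted p = 0.00382). Prdm1, which encodes the plasma cell factor BLIMP1, fell from 3.81 to 30.5 CPM to 0.828 to 1.25 CPM (-3.15, SE 0.46, edgeR adjusted p = 0.00243). With the mouse as a block Grap2 was called higher too (log2 fold change 2.03, edgeR adjusted p = 0.0218).

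Of 22 FOXO targets all were tested, 5 were called higher and 4 lower (5.99% and 6.49% of all tested genes), with a median log2 fold change of 0.16 beside -0.02. Il7r, the alpha chain of the IL7 receptor, fell from 235 to 401 CPM to 145 to 189 CPM (log2 fold change -1.06, SE 0.13, edgeR adjusted p = 0.00328), in lines whose Foxo1 ranges overlapped. Rag1 was at 14.5 to 147 CPM over EV and 24.2 to 49.9 CPM over BCR-ABL1 lines (-0.66, edgeR adjusted p = 0.807), and Rag2 at 0.938 to 6.02 and 2.54 to 7.56 CPM (0.29, edgeR adjusted p = 1). Both encode the recombinase of antigen receptor genes, and neither was called. S1pr1, a receptor for egress from lymphoid organs, rose from 0.0565 to 2.31 CPM to 7.78 to 14.8 CPM (edgeR adjusted p = 0.0161). Irs2, an adaptor of insulin signalling, rose from at most 1.61 CPM to 9.65 to 12.9 CPM (edgeR adjusted p = 0.0102). Pdk1, a kinase of pyruvate dehydrogenase, rose from 21.5 to 80.3 CPM to 117 to 143 CPM (1.52, SE 0.36, edgeR adjusted p = 0.0274). Bcl6, a repressor of the pre-B and germinal centre stages, fell from 11.7 to 54.0 CPM to 1.48 to 2.97 CPM (-4.08, SE 0.37, edgeR adjusted p = 1.31e-05). Ccng2 fell by 1.31 (SE 0.29, edgeR adjusted p = 0.0174), and its groups overlapped (66.2 to 263 CPM and 58.0 to 81.4 CPM). Without EV lines 2A and 2B it was no longer called. With the mouse as a block Klf2 (log2 fold change 1.79, edgeR adjusted p = 0.00969) and Gadd45a (2.97, edgeR adjusted p = 0.0241) were called higher too.

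Of 12 WNT and LEF1 targets 7 were tested, 3 were called higher and 1 lower (5.99% and 6.49% of all tested genes), with a median log2 fold change of 1.09 beside -0.02. Axin2, a feedback inhibitor of WNT signalling, rose from at most 0.797 CPM to 5.70 to 7.96 CPM (edgeR adjusted p = 0.000859). Nkd2, another inhibitor of the pathway, rose from 0.338 to 1.59 CPM to 1.99 to 6.57 CPM (1.99, SE 0.43, edgeR adjusted p = 0.0120). Ccnd1, cyclin D1, rose from at most 0.460 CPM to 0.848 to 3.72 CPM (edgeR adjusted p = 0.000560). Lgr5, a receptor for R-spondins, fell from 20.5 to 134 CPM to 1.53 to 3.89 CPM (-4.75, SE 0.45, edgeR adjusted p = 3.42e-05). Of the 16 cofactors listed 13 were tested, and of the 8 MYB targets 6. In both lists 0 were called by edgeR's glmTreat (12.5% of all tested genes), 0 at an unadjusted p under 0.05 (21%) and 0 by DESeq2 (9.48%). The medians of these lists were -0.15 and 0.34. With the mouse as a block Tle1, a corepressor, was called higher (log2 fold change 2.48, edgeR adjusted p = 0.0177) and Gfi1, a repressor and MYB target, lower (-2.10, edgeR adjusted p = 0.00573).

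Of 8 targets of OCT2 and OBF1, 7 were tested, 1 was called higher and 2 lower (5.99% and 6.49% of all tested genes), with a median of -0.40 beside -0.02. Il5ra, a receptor chain for interleukin 5, fell from 7.65 to 22.4 CPM to 1.85 to 5.08 CPM (-2.22, SE 0.33, edgeR adjusted p = 0.00121). Ms4a1, which encodes CD20, fell from 0.332 to 10.7 CPM to at most 0.170 CPM (edgeR adjusted p = 0.00771). Of 22 other B lineage transcription factors all were tested, 1 was called higher and 3 lower, where 12.5% of all tested genes were called, with a median of -0.41 beside -0.02. Erg, an ETS factor of blood stem cells, rose from at most 0.358 CPM to 46.3 to 117 CPM (edgeR adjusted p = 2.27e-06). Ets1, another ETS factor, fell from 592 to 693 CPM to 208 to 298 CPM (-1.37, SE 0.11, edgeR adjusted p = 7.06e-05). Bach2, a repressor of plasma cell genes, fell from 133 to 478 CPM to 77.9 to 122 CPM (-1.50, SE 0.28, edgeR adjusted p = 0.00670), and Bcl6 is in this list too. Erg and Bcl6 changed by more than Bcl11a on the log2 scale, and Bach2 and Ets1 by more than any of the other 9 commitment factors.

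**Figure D5:**
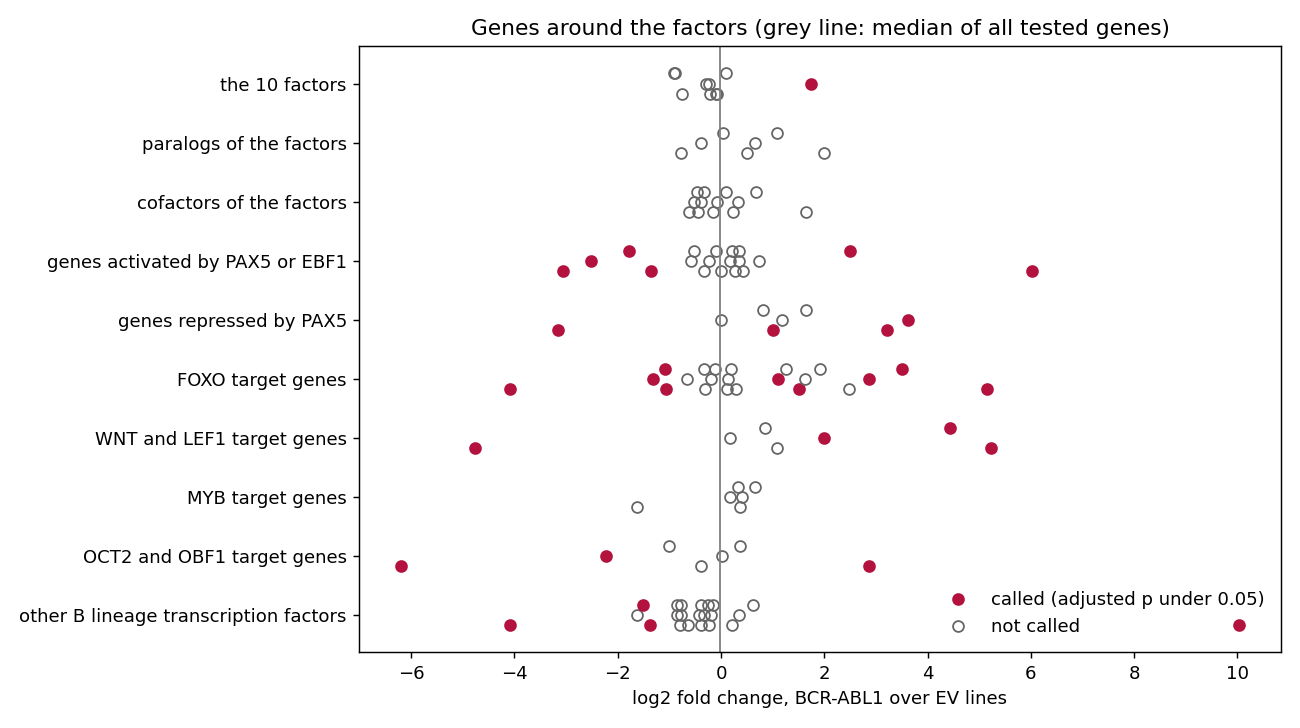
Log2 fold change of BCR-ABL1 over EV lines (edgeR) for every tested gene of 9 lists and for the 10 factors. Filled red points are genes called by glmTreat and open points those not called, and the grey line is the median of all tested genes (-0.02). In the lists of PAX5, FOXO and LEF1 targets called genes lie on both sides, while the cofactors and the MYB targets hold no called gene.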

How the data were processed

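RNA of 6 EV and 6 BCR-ABL1 pre-B cell lines was sequenced from stranded total RNA libraries. The authors deposited whole-number counts per gene for all 12 lines, without normalization or pooling. The submitters' processing notes name FastQC 0.11.5, Trimmomatic 0.36, TopHat2 2.1.1, Bowtie2 2.3.2, featureCounts 1.5.3, R 3.6.1 and edgeR 3.18.1 and the build GRCm38, but no strand setting. Symbols, positions and exon lengths came from GENCODE M21, which held 51633 of the 51826 identifiers. Groups were taken from the labels.

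From these counts, filterByExpr, TMM and glmTreat (1.5-fold, Benjamini-Hochberg, threshold 0.05) were run in R 4.3.3 with edgeR 4.0.16, where the study used a likelihood ratio fit. Interactions of mouse and condition were tested with glmQLFTest. Standard errors and permutation tests used log2 CPM with a prior count of 2. Intervals (95%) came from limma 3.58.1. DESeq2 1.42.0 was an alternative, as were RLE scaling, no gene filter, a CPM of 1 in 6 lines, the likelihood ratio fit, a test against no change, blocks, single mice and leaving out each line. Limma, leaving out EV lines 2A and 2B, and the overlap of groups without EV line 2C were added after seeing the data. The figures used Python 3.11.15 and matplotlib 3.10.9. On simulated counts of 15038 genes for the comparison of BCR-ABL1 with EV lines, glmTreat recovered 171 of 200 changed genes with 0 false calls. The changed genes were well counted and changed by more than 1.5-fold, and all others had no change. No difference between the mice was simulated, so that the result does not give the power or error rate for these lines.

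EV and BCR-ABL1 lines share the numbers 1A to 2C, and the labels give equal first digits to lines of 1 mouse. Deviations from the condition means correlated at 0.0853 to 0.240 between EV and BCR-ABL1 lines of 1 mouse. Between mice they correlated at -0.203 to -0.0636, which follows from the centring once those within a mouse are positive. The samples were taken as paired by mouse, as labelled. The study's methods speak of 3 independent experiments without tying them to letters. Replicates differed by a chi-square of 10.0 or more per gene, and none was treated as 1 library with another.

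The 10 factors and all gene lists were chosen with earlier results of these data known. Named beside the factors are all called genes of a list with up to 6 called, otherwise the 6 with the largest change and an average log2 CPM from 1 upwards, and also Il7r, Rag1, Rag2, Cd79a, Igll1, Blnk and all paralogs, apart from genes that are not reported here. A gene outside this rule is named where it bears on a factor.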

Additional observations from a re-analysis of the deposited data

Results flagged for a closer look

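Among the 20 groups of 6 lines formed by the factors and the conditions, 3 held a line whose gap to its nearest neighbour was large for the range of the group. The cut used flags about 1 in 20 groups of independent normal values. The factors share their libraries, so that this rate does not apply here and an excess was not tested. EV line 2B was high in Pax5, at 569 CPM beside 428 CPM in the next line. BCR-ABL1 line 2A was low in Ebf1, at 317 CPM beside 379 CPM, and in Foxo1, at 55.6 CPM beside 98.1 CPM. The last 2 are of the same line.

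The BCR-ABL1 effect differed between the mice in 12 of the 40 genes with such a test that the naming rule adds to the factors, by edgeR's interaction test, where 16.3% of all genes were called. The log2 fold change was higher in mouse 2 than in mouse 1 in Fcrla (by 2.24, adjusted p = 0.0202), Ralgps2 (by 1.83, adjusted p = 0.0175) and Mybl1 (by 0.73, adjusted p = 0.00623). It differed by -1.71 in Igll1 (adjusted p = 0.00544), by -1.58 in Pdk1 (adjusted p = 0.00147) and by -0.44 in Ets1 (adjusted p = 0.0267). The remaining genes were at or under 0.448 CPM in the EV lines of mouse 1. How far their fitted differences depend on the prior count was not tested. These were -2.45 in Jchain (adjusted p = 0.0283), -5.22 in Irs2 (adjusted p = 0.0467), -4.90 in S1pr1 (adjusted p = 3.34e-05), -4.01 in Erg (adjusted p = 0.0328), -6.26 in Tcf7 (adjusted p = 0.0207) and -5.36 in Tcf7l2 (adjusted p = 0.00187). Of the genes named outside that rule it differed in Vpreb1 (adjusted p = 0.000374), Klrb1c (adjusted p = 0.000300), Tnfsf10 (adjusted p = 0.000218) and Grap2 (adjusted p = 0.00124). It also differed in Gadd45a (adjusted p = 0.00453), Notch1 (adjusted p = 0.0313) and Tle1 (adjusted p = 0.0390).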

How the results depend on the processing

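Over 24 alternatives Bcl11a was the 1 factor called higher in each, at log2 fold changes of 1.62 to 2.09. The count called lower, 0, was 4 against no change (48.5% of all genes) and 1 in the lines of mouse 1 alone (28.5%). Leaving out 1 line gave 0 to 2, the 2 without EV line 2C (Pou2f2 and Myb), where 18.2% of all genes were called. With mouse as replicate block 1 factor was called higher and 0 lower, as without the block, and 14.7% of all genes were called. With the line pair as replicate block the counts were also 1 and 0, where 11.2% of all genes were called. The log2 fold change of Pax5 turned positive in mouse 1 alone (0.0192) and without EV lines 2A and 2B (0.00423), and that of Sox4 likewise (0.10 and 0.15), none of them called. The count of factors whose effect differed between the mice, 0, was 1 with no gene filter (7.96% of all genes), 1 with DESeq2 (21.1%) and 1 with the likelihood ratio fit (19.4%), each time Lef1, and 0 to 4 on leaving out 1 line. Among EV lines the count of factors that differed between the mice, 0, was 1 against no change (12% of all genes), and 0 to 1 on leaving out 1 line (1 without EV line 2C, with 15.5%). Among BCR-ABL1 lines, 0, it was 1 with no gene filter (Bcl11a, 5.04% of all genes) and 4 against no change (22.1%). The causes were not tested. Among the genes of the lists the mouse block added 5 calls (Tle1, Grap2, Klf2, Gadd45a and Gfi1) and ended none. They, and the genes named next, were chosen after their values were seen. Without EV line 2C the lists gained Tcf7l2, Grap2 and Znrf3 as higher and Zeb2 as lower and lost none of their called genes. Without EV lines 2A and 2B they lost Cd22 and Ccng2 and gained Blnk, Notch1, Grap2, Klf2, Gadd45a, Tnfsf10, Tcf7 and Sox12. Depth did not limit the factors, whereas fold changes of genes near 3 counts per line are not reliable.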
